A study of Homo sapiens with 4 samples.

Results

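Of the 58735 gene rows in the count matrix, 130 were noncoding genes of 4 naming classes that reached a sum of at least 100 counts over the 4 libraries. The classes were 93 LINC genes (long intergenic noncoding RNAs), 17 SNHG genes (small nucleolar RNA host genes), 15 microRNA host genes (named MIR and ending in HG) and 5 genes taken by name, MALAT1, NEAT1, GAS5, ZFAS1 and CYTOR. Names and biotypes of these classes were held by 1978 rows, of which 1290 had 0 counts and 558 had 1 to 99 counts. The 130 genes were thus chosen by their measured level, the count summed over both treatments, and that these genes are expressed is not a result. Just inside the threshold lay LINC00239 (101 counts), LINC01836 (104 counts) and LINC02313 (108 counts). Just outside it lay LINC01967 (99 counts), LINC01979 (97 counts) and LINC00858 (96 counts).

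The cells were SW1990, an established line from a human pancreatic ductal adenocarcinoma, cultured in DMEM. They were exposed for 24 h to vehicle (2 libraries) or to 10 µM gomisin G (2 libraries), a lignan of Schisandra plants. The series addresses growth inhibition by gomisin G and the Hippo-YAP pathway. The labels name no separate cultures and no batches, so p-values measure only the spread between these libraries, which may be technical.

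Long noncoding RNAs are transcripts with little or no coding capacity, and their names reflect what lies in or near the gene more than what the RNA does. Host genes carry small RNAs in their introns or exons. The spliced SNHG transcript is in many cases short-lived, while the snoRNAs cut from its introns guide chemical modification of ribosomal RNA. MicroRNA host transcripts are cut in the nucleus by the DROSHA complex, and the mature microRNA represses mRNAs that match its seed. NEAT1 builds the nuclear bodies called paraspeckles, and MALAT1 is an abundant RNA of nuclear speckles.

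Total counts were 14580848 to 15245770 per library, and 3 counts, the limit that a count of 0 allows, corresponded to 0.197 to 0.206 CPM (counts scaled to library size). Such limits cover counting error only. The 130 genes took 0.269% and 0.245% of counts with vehicle and 0.3001% and 0.298% with gomisin G. The Gomisin G libraries differed from each other more than the Vehicle libraries did, with a chi-square of 37.2 against 6.98 per gene. Mitochondrial genes held 6.03% and 7.05% of counts with vehicle and 8.45% and 6.80% with gomisin G. All 8 epithelial and duct markers were tested and none was called, and their summed level was 11925 and 10141 CPM with vehicle and 9969 and 7820 CPM with gomisin G. The keratins KRT8 and KRT18 carried most of that sum, and 5 of the 8 markers had positive log2 changes, with a median of 0.16. KRT7, a duct keratin, was low at 13 to 30 counts. Fibroblast markers summed to 4.62 and 4.91 CPM with vehicle and to 8.57 and 11.99 CPM with gomisin G, with 2 of 6 (COL1A2 and LUM) at 0. Neural markers summed to 2.90 and 2.89 CPM against 6.42 and 9.28 CPM. Leukocyte markers were at 4.67 to 6.12 CPM with 3 of 5 at 0, endothelial markers at 0.207 to 0.966 CPM with 0 of 3 at 0, and acinar and endocrine markers at 0.345 to 0.691 CPM with 3 of 6 at 0. The part of the fibroblast and neural marker levels in any result was not tested.

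With gomisin G, 1 of the 130 genes fell, MIR4435-2HG, and 1 rose, LINC01342, which met the threshold of 100 counts only through its Gomisin G libraries. Among rows with at least 50 Vehicle counts, 0 were called higher. A gene is called when its edgeR quasi-likelihood p, adjusted over all 15721 tested genes, is below 0.05, and all 130 noncoding genes passed the expression filter. The called share was 1.54% of the 130 genes against 1.83% of all tested genes (0.922% higher and 0.903% lower). By an unadjusted p below 0.05, 25 of the 130 were higher and 13 lower, or 29.2%, against 20.6% of all tested genes (10.9% higher and 9.62% lower). The groups did not overlap for 80 of the 130 genes, with gomisin G above for 51 and below for 29, which is 61.5% against 54.2% of all tested genes. DESeq2 called 10 of the 130 (7.69%) and 5.66% of all tested genes. They were LINC01342, NEAT1, MALAT1, LINC00346, LINC00511, LINC00847 and LINC00963, all higher, and MIR4435-2HG, CYTOR and SNHG4, all lower.

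The calls depended on single libraries. Without Vehicle replicate 2 the test called 0 of the 130 genes (15 at an unadjusted p below 0.05), and without Vehicle replicate 1 it called 1 higher and 0 lower. Of all tested genes, 0.813% and 0.960% were called in these fits. Without Gomisin G replicate 1 it called 17 higher and 11 lower, where 17.1% of all tested genes were called, and without Gomisin G replicate 2 it called 37 higher and 13 lower, where 38.6% of all were called.

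**Figure D1:**
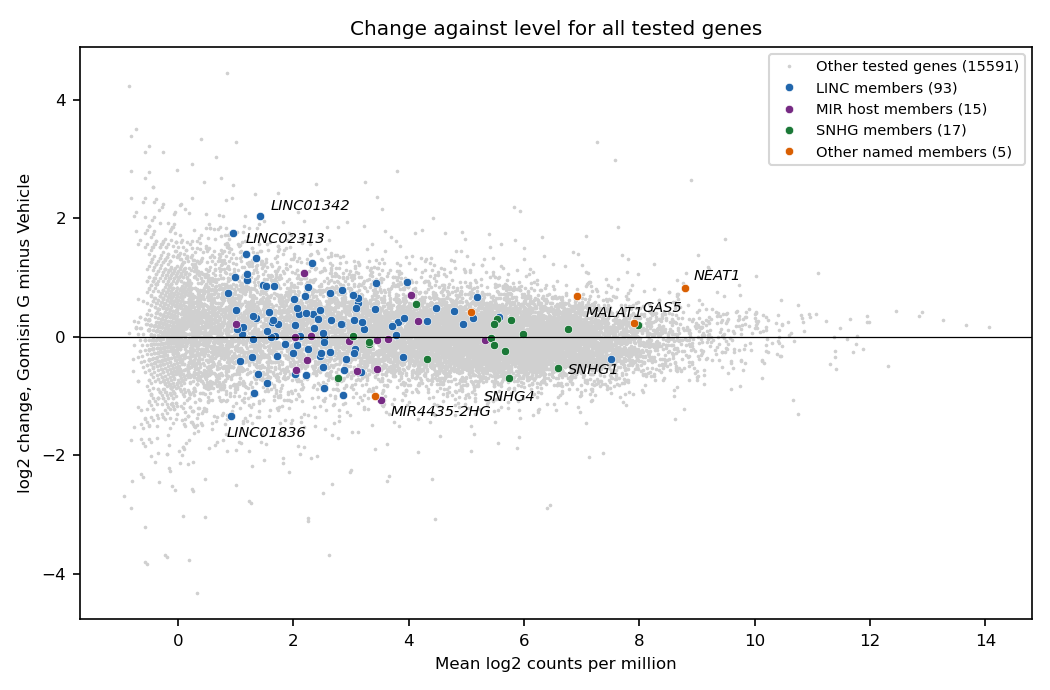
Change against level for all 15721 tested genes, with the mean log2 CPM on the horizontal axis and the log2 change (Gomisin G minus Vehicle) on the vertical axis. The 130 noncoding genes, coloured by class, run from -1.34 (LINC01836) to 2.04 (LINC01342), and the larger changes lie among genes of low level.

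Of the 130 log2 changes (Gomisin G minus Vehicle), 81 were positive and 49 negative, with a median of 0.19 against 0.0092 for all tested genes. The median was 0.25 for the 93 LINC genes (63 positive, 30 negative), -0.028 for the 17 SNHG genes (8 positive, 9 negative), -0.056 for the 15 microRNA host genes (6 positive, 9 negative) and 0.42 for the 5 named genes. The 1920 other long noncoding genes that were tested had a median of 0.15, 60.9% of them were positive, and 8 were called higher and 3 lower (0.573%). A positive median was thus shared by long noncoding genes outside the 130. Without Gomisin G replicate 1 the median of the 130 was 0.028. It was 0.11 among rows with at least 50 Vehicle counts, a choice that does not use the Gomisin G counts, and 0.087 with the trend on gene length removed.

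**Figure D2:**
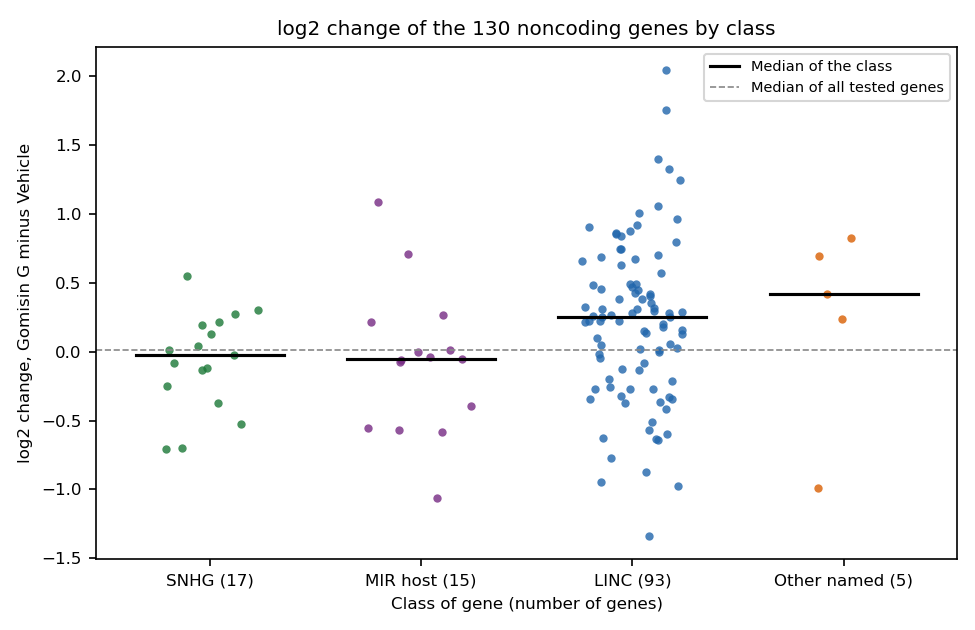
The log2 change (Gomisin G minus Vehicle) of each of the 130 noncoding genes by class, 1 point a gene, with the class median as a black bar and the median of all tested genes as a dashed line. The LINC genes centre on 0.25, the SNHG genes on -0.028 and the microRNA host genes on -0.056.

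Counts were concentrated in few genes. NEAT1 alone held 16.0% of the 166343 counts of the 130 genes, the 5 most counted genes held 44.5% and the 10 most counted held 57.9%. The precision followed the level: the median standard error (SE) of the log2 change was 0.36 for the 33 genes under 200 counts, 0.27 for the next 48, up to 500 counts, 0.22 for the next 22, up to 1000 counts, and 0.19 for the 27 at or above that. Per kilobase of exon, the most abundant with vehicle were GAS5 at 60.7 CPM per kb, SNHG12 at 55.1, LINC02086 at 53.1, SNHG8 at 44.7 and SNHG6 at 39.4. These had no replicate test against each other. The length is that of all annotated exons merged, not of the transcripts present, so the order of genes depends on the annotation. With gomisin G the levels per kilobase were 71.6, 63.1, 41.2, 51.9 and 47.8 CPM per kb in the same order of genes.

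The nuclear architectural RNAs NEAT1 and MALAT1 were higher in both Gomisin G libraries, short of the threshold. NEAT1 lies at chr11:65422774-65445540 on the plus strand and MALAT1 at chr11:65497688-65506516 on the plus strand. NEAT1 was at 359 and 281 CPM with vehicle and at 507 and 627 CPM with gomisin G. The groups did not overlap, although the Vehicle libraries were themselves apart. Its log2 change was 0.83 (SE 0.20, adjusted p = 0.0800). MALAT1 was at 94.2 and 90.8 CPM with vehicle and at 141 and 157 CPM with gomisin G. These groups did not overlap either, and the spread within each was small beside the gap. The log2 change was 0.69 (SE 0.15, adjusted p = 0.0642). Per kilobase of merged annotated exons NEAT1 went from 14.1 to 24.9 and MALAT1 from 10.5 to 16.9 CPM per kb, below GAS5 and SNHG12. DESeq2 called both, with adjusted p of 0.00354 for NEAT1 and 0.0112 for MALAT1.

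Together NEAT1 and MALAT1 summed to 453 and 371 CPM with vehicle and 648 and 784 CPM with gomisin G, a ratio of 1.74. All 130 genes summed to 2710 and 2460 CPM against 3117 and 2863 CPM, a ratio of 1.16 (exact two-sided permutation p = 0.333, the smallest that 2 against 2 libraries can give). Without these 2 genes the sums were 2257 and 2089 CPM against 2468 and 2080 CPM, a ratio of 1.05 with overlapping groups. Of 12 genes for paraspeckle proteins, which bind NEAT1 in that body, all 12 changes were negative, with a median of -0.24. Of all 15721 tested genes, 7744 had negative changes. An unadjusted p below 0.05 was held by 1 of the 12, against 20.6% of all tested genes, and 0 were called. The one was NUDT21, a cleavage factor subunit, at 226 and 217 CPM with vehicle and 151 and 143 CPM with gomisin G (log2 change -0.59, SE 0.15, adjusted p = 0.0868). The essential paraspeckle protein gene NONO was at 597 and 586 CPM against 518 and 488 CPM.

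**Figure D3:**
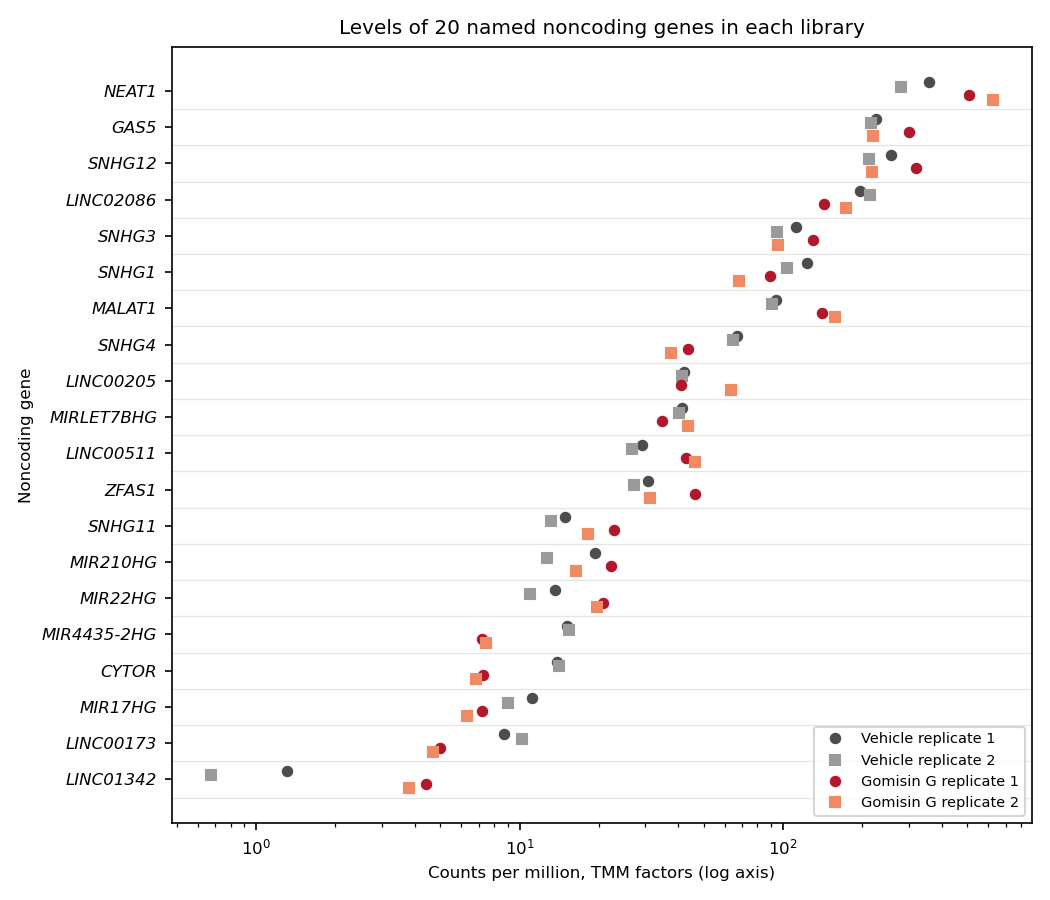
Levels in CPM (log axis) of 20 named noncoding genes in each library, grey for Vehicle and red for Gomisin G, with circles for replicate 1 and squares for replicate 2. NEAT1, MALAT1, LINC00511 and LINC01342 have both red symbols to the right of both grey ones, and CYTOR, MIR4435-2HG, SNHG4 and LINC00173 have them to the left.

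MIR4435-2HG and CYTOR share near-identical stretches on chromosome 2, at chr2:111036776-111523376 (minus strand, 13094 exon bases) and chr2:87454781-87636740 (plus strand, 17693 exon bases). CYTOR is known for its roles in cytoskeleton regulation and tumour growth. The best transcript alignment between them, from GENCODE 29, ran over 2254 columns with 99.2% identity, 14 mismatches and 3 gap columns. Of the words of 31 bases in MIR4435-2HG transcripts, 25.2% also occurred in CYTOR, and 18.7% the other way. Most of their annotated exon sequence is thus not shared. A stretch of 120 bases, chosen from the aligned part, shows the shared sequence. It spans 2 exons, at chr2:87455583-87583314 (plus) in CYTOR and chr2:111367519-111494947 (minus) in MIR4435-2HG, and the capital marks the only base that differs within it.
CYTOR: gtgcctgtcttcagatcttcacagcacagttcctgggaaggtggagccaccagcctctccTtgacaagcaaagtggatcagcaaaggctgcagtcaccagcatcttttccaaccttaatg
MIR4435-2HG: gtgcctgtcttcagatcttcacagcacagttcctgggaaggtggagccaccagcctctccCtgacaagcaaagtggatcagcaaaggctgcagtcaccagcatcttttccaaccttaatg
The sources used here do not give how the counting treated reads that fit both genes, and each value may hold reads of the other.

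MIR4435-2HG was at 15.1 and 15.4 CPM with vehicle and at 7.18 and 7.45 CPM with gomisin G. Its mean fell from 15.3 ± 0.214 to 7.32 ± 0.187 CPM (SD, n = 2 libraries each), a log2 change of -1.06 (SE 0.20, adjusted p = 0.0430). The groups stood far apart beside the gap within each. CYTOR gave nearly the same numbers, 13.9 and 14.1 CPM against 7.25 and 6.82 CPM, with a log2 change of -0.99 (SE 0.20, adjusted p = 0.0548, or 0.0213 with DESeq2). With the counts of both genes summed into 1 row, an alternative chosen after seeing the data, the log2 change was -1.03 (SE 0.17, adjusted p = 0.0325). The call of MIR4435-2HG was lost without Vehicle replicate 1 (log2 change -1.08, adjusted p = 0.206) and without Vehicle replicate 2 (-1.05, adjusted p = 0.245), where the direction and size stayed. It was also lost with upper-quartile factors (adjusted p = 0.0527) and with the trend on gene length removed (-0.81, adjusted p = 0.0532). MIR4435-2HG overlaps the bodies of the protein-coding genes BCL2L11 and ACOXL.

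The microRNA host genes carry the microRNAs that the following mature sequences show (RefSeq, GRCh38.p14, seed bases 2 to 8 in capitals). They are given for the hosts with the largest differences and for seeds that several hosts share. MIR4435-2HG and CYTOR hold the same mature miR-4435. The let-7 seed is in MIRLET7BHG, MIR100HG and MIR4458HG, and the miR-29 seed is in MIR29B2CHG and in the LINC-PINT row ENSG00000226380. MIR17HG, the host of the miR-17-92 cluster, carries the miR-17 seed and the miR-19 seed on separate microRNAs.
miR-4435: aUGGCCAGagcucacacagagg
let-7a-5p: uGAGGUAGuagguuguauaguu
let-7b-5p: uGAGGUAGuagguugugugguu
miR-4458: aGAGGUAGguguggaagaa
miR-29c-3p: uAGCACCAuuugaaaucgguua
miR-29b-3p: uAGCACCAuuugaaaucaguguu
miR-17-5p: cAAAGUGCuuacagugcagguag
miR-20a-5p: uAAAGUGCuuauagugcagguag
miR-19a-3p: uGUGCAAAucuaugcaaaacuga
miR-19b-3p: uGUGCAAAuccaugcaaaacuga
miR-22-3p: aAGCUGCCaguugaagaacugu
miR-100-5p: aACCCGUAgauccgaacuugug
The host transcripts were counted, not the mature microRNAs, so no level of a microRNA is given.

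The 3 hosts that share the let-7 seed are described side by side, and the differences between them were not tested. MIRLET7BHG, the most abundant microRNA host, was at 41.2 and 40.3 CPM with vehicle and 34.8 and 43.6 CPM with gomisin G, with overlapping groups (log2 change -0.06, SE 0.18). MIR100HG was at 3.45 and 2.22 CPM against 6.15 and 5.87 CPM, with both Gomisin G libraries above (log2 change 1.08, SE 0.30, adjusted p = 0.102). MIR4458HG was at 4.21 and 3.63 CPM against 5.11 and 2.78 CPM, with the Gomisin G libraries on either side of the Vehicle ones. Of the miR-29 seed hosts, MIR29B2CHG was at 4.41 and 5.18 CPM against 4.14 and 5.49 CPM (log2 change 0.01, SE 0.27), with overlapping groups. MIR100HG, MIR4458HG and MIR29B2CHG are named after their values were seen.

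MIR22HG, a host gene known to respond to stress, was at 13.7 and 10.97 CPM with vehicle and 20.7 and 19.7 CPM with gomisin G. The groups did not overlap, and the log2 change was 0.71 (SE 0.20, adjusted p = 0.102). MIR17HG, a MYC-regulated gene at chr13:91347820-91354579, was at 11.2 and 9.02 CPM against 7.18 and 6.31 CPM, both Gomisin G libraries lower (log2 change -0.58, SE 0.23, adjusted p = 0.209). MIR210HG, the host of the hypoxia-linked miR-210, was at 19.4 and 12.7 CPM against 22.2 and 16.4 CPM. Its groups overlapped (log2 change 0.26, SE 0.26), and without Vehicle replicate 2 the log2 change was -0.0089. Of all 15 hosts, 1 was called (1.83% of all tested genes were), and 4, or 26.7%, had an unadjusted p below 0.05 against 20.6% of all tested genes. Genes of microRNA processing gave 7 negative changes and 1 positive among 8, with a median of -0.40, 2 unadjusted p below 0.05 and 0 calls. For them the median deviation from the vehicle mean was -0.65 in the first Gomisin G replicate and -0.20 in the other. DICER1, the nuclease that cuts the hairpins, was at 86.6 and 91.3 CPM with vehicle and at 45.2 and 77.1 CPM with gomisin G. Its Gomisin G values lay far apart from each other.

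Of the 17 SNHG genes, edgeR called 0 and DESeq2 called 1, SNHG4. Of all tested genes, edgeR called 1.83% and DESeq2 5.66%. By edgeR, 4 of the 17, or 23.5%, had an unadjusted p below 0.05, against 20.6% of all tested genes. The summed level of the SNHG genes was 1006 and 852 CPM with vehicle and 1074.5 and 776 CPM with gomisin G. The spread within each group thus exceeded the difference between the group means (ratio 0.996, exact two-sided permutation p = 1). Replicate 1 was above replicate 2 in both groups for most of them, 15 of 17 with vehicle and 15 of 17 with gomisin G. For all tested genes these shares were 50.1% and 48.4%. The median deviation of the SNHG genes from the vehicle mean was 0.21 for the first Gomisin G replicate and -0.25 for the other. Their median log2 change was 0.20 when Vehicle replicate 1 was left out and 0.16 when Gomisin G replicate 2 was, but -0.27 without replicate 1 of gomisin G. The groups did not overlap for 6 of the 17, or 35.3%, against 54.2% of all tested genes.

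**Figure D4:**
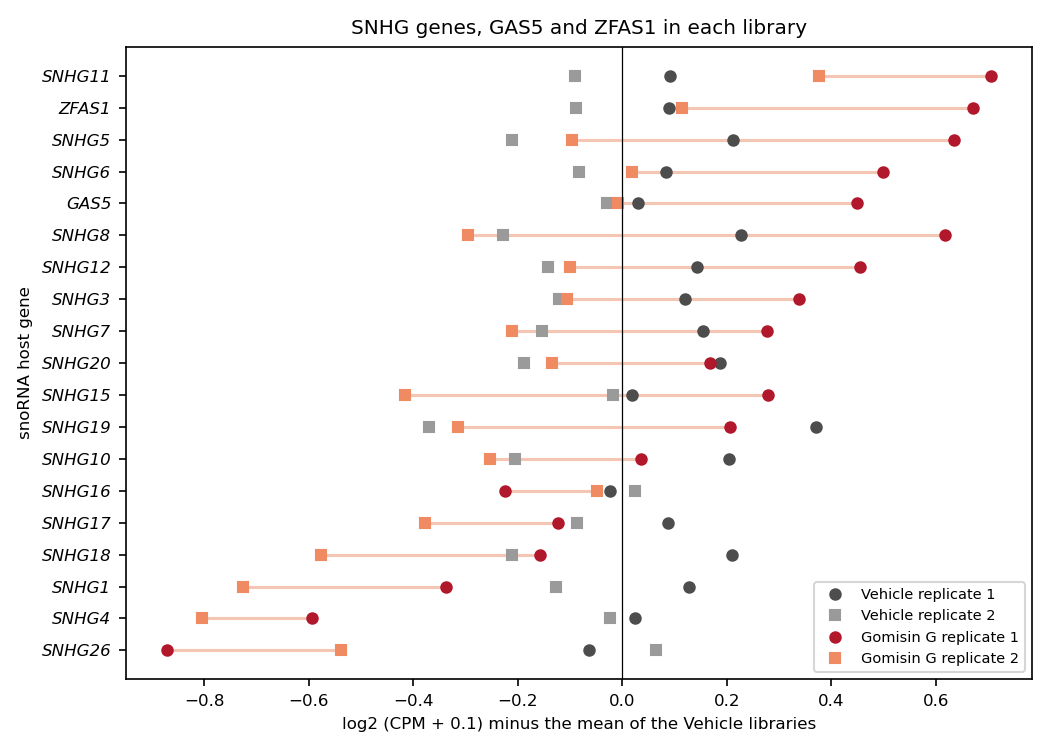
Level of the 17 SNHG genes, GAS5 and ZFAS1 in each library, as log2 (CPM + 0.1) minus the mean of the Vehicle libraries, ordered by log2 change. Gomisin G replicate 1 lies to the right of replicate 2 for 15 of the 17 SNHG genes. SNHG1, SNHG4 and SNHG26 have the most negative log2 changes of the genes shown.

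SNHG4 stood lowest relative to its spread. It was at 67.0 and 64.8 CPM with vehicle and 43.7 and 37.7 CPM with gomisin G, groups that did not overlap (log2 change -0.70, SE 0.16, adjusted p = 0.0742). DESeq2 gave SNHG4 an adjusted p of 0.0245. SNHG1, the host of SNORD22, SNORD25 and other box C/D snoRNAs, was at 123 and 103 CPM against 89.2 and 68.2 CPM (log2 change -0.53, SE 0.19, adjusted p = 0.177). Both Gomisin G libraries were lower, and each group spread widely. SNHG26, named after its values were seen, was at 7.93 and 8.68 CPM against 4.49 and 5.68 CPM (log2 change -0.70, SE 0.24, adjusted p = 0.162). In the other direction, SNHG11 was at 14.9 and 13.1 CPM against 22.9 and 18.2 CPM (log2 change 0.55, SE 0.20, adjusted p = 0.182), with no overlap. SNHG4 overlaps the protein-coding genes SIL1 and MATR3, and SNHG11 overlaps none.

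The most abundant SNHG genes had overlapping groups. SNHG12 was at 258 and 212 CPM with vehicle and 321 and 218 CPM with gomisin G (log2 change 0.20, SE 0.22). SNHG3 was at 112 and 94.6 CPM against 130 and 95.6 CPM (log2 change 0.13, SE 0.19). In both, Gomisin G replicate 1 alone stood above the Vehicle libraries, and without it the log2 changes were -0.11 for SNHG12 and -0.11 for SNHG3. GAS5, a snoRNA host whose spliced RNA builds up in growth-arrested cells, also had overlapping groups. It was at 225 and 216 CPM against 301 and 219 CPM (log2 change 0.24, SE 0.19, adjusted p = 0.501), and at -0.010 without Gomisin G replicate 1. ZFAS1, which hosts the SNORD12 family, was at 30.8 and 27.2 CPM against 46.1 and 31.3 CPM. Both Gomisin G libraries were above, the second only just (log2 change 0.42, SE 0.22, adjusted p = 0.314).

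Many snoRNA hosts begin with a terminal oligopyrimidine (TOP) start, a C followed by a run of pyrimidines, which ties translation to growth signals. A TOP-like start was counted where a C at the RefSeq start is followed by at least 4 bases that are each C or T, read on the gene's strand only. It was found in 4.07% of 35116 RefSeq promoters (GRCh38.p14). Of the 110 matched starts of the noncoding genes, 7 had it. Some genes without a snoRNA row, such as MIR100HG and LINC-PINT, had several listed starts, and each start was counted. A TOP-like start was present in 6 of the 16 starts of genes that hold a snoRNA row (37.5%). Of the other 94 starts, 1 had it (1.06%). The contrast depended on the exact position. Within 5 bases of the listed start, 10 of the 16 starts (62.5%) and 28 of the 94 (29.8%) had the motif. Of all promoters, 21.1% had it within 5 bases. GAS5 held no snoRNA row in the annotation used, so its start was among these 94. The 6 exact matches in genes with a snoRNA row are shown from 20 bases before the start, with the pyrimidine run in capitals.
SNHG12: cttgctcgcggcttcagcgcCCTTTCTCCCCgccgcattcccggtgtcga
SNHG18: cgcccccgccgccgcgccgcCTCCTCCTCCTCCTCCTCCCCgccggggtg
SNHG4: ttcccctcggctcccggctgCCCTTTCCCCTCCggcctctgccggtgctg
SNHG5: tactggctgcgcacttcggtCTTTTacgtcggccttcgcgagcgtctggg
SNHG19: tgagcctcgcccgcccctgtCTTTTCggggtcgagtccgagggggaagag
ZFAS1: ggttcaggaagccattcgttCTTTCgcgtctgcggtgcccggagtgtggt
They lie at chr1:28581844-28581893 (minus), chr5:9546180-9546229 (plus), chr5:139274081-139274130 (plus), chr6:85678704-85678753 (minus), chr16:2155329-2155378 (minus) and chr20:49278622-49278671 (plus). A match describes the letters at 1 listed start and is not a measured start site. Log2 changes of these 6 genes were 0.20, -0.37, -0.70, 0.30, -0.08 and 0.42 in the same order, so genes with such a start did not share a direction. Of 12 listed TOP mRNAs other than ribosomal protein genes, 11 were tested, 0 were called, and the median change was 0.051.

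Inside the 130 genes lay 48 rows for snoRNAs or scaRNAs, in 20 genes (the 17 SNHG genes, ZFAS1, LINC02001 and LINC00888). GAS5, although a snoRNA host, held no such row in the annotation used, so the 20 genes are not all hosts among the 130. The 48 rows held 130 and 116 counts with vehicle and 82 and 124 counts with gomisin G in all. Whether few of these small RNAs were captured or their reads were left uncounted cannot be told apart. The 32 microRNA rows, in 20 genes, held 29, 20, 16 and 38 counts. The 13 genes of snoRNA-protein particles and their assembly gave 6 positive and 7 negative changes and 0 calls. Of these 13, 4 had an unadjusted p below 0.05, against 20.6% of all tested genes. In that list the first Gomisin G replicate had a median deviation of 0.15 and the other -0.26. NOP56, a core protein of box C/D particles, was at 317 and 305 CPM with vehicle and 249 and 213 CPM with gomisin G (log2 change -0.43, SE 0.16, adjusted p = 0.196). FBL, the methyltransferase of those particles, was at 191 and 162 CPM against 214 and 145 CPM. Nonsense-mediated decay, the pathway that degrades many spliced SNHG transcripts, was represented by 10 genes with 9 negative changes, a median of -0.27 and 0 calls. Of these, 1 had an unadjusted p below 0.05, against 20.6% of all tested genes. The median deviation of the 10 genes was -0.41 in the first Gomisin G replicate and -0.12 in the other. The nuclear exosome and its adaptors, which trim and degrade nuclear noncoding RNA, gave 6 negative changes of 8, a median of -0.23 and 0 calls. An unadjusted p below 0.05 was held by 1 of the 8, against 20.6% of all tested genes. For this list the median deviations were -0.38 in the first Gomisin G replicate and -0.11 in the other.

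LINC01342, an intergenic transcript of 1620 exon bases at chr1:1137017-1144056 on the plus strand, was the only LINC gene called. It had 19 and 10 counts with vehicle and 64 and 60 counts with gomisin G, or 1.31 and 0.673 CPM against 4.42 and 3.79 CPM. The groups were far apart, and the Vehicle libraries differed from each other. The mean rose from 0.992 ± 0.451 to 4.10 ± 0.448 CPM (SD, n = 2 libraries each), with a log2 change of 2.04 (SE 0.39, adjusted p = 0.0477). At its Vehicle level in all libraries the gene would not have reached the sum of 100 counts. The call was lost without Vehicle replicate 2 (log2 change 1.64, adjusted p = 0.219) and with RLE factors (adjusted p = 0.0520), the legacy estimation (0.0545) and limma voom (0.0571). LINC01342 overlaps no protein-coding gene, has no exon base in exons of other genes and shares no word of 31 bases with their transcripts.

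Other genes also reached the threshold mainly through one group. Under 50 Vehicle counts in sum were held by 9 of the 130 genes, and the changes of all 9 were positive. A sum of at least 100 leaves such genes more than 50 Gomisin G counts. The count threshold thus set this direction, which is not a result. Under 50 Gomisin G counts were held by 2. Among rows with at least 50 Vehicle counts, whatever their Gomisin G counts (124 rows), the median of the LINC genes was 0.18. LINC02313, at 12 and 12 counts with vehicle and 48 and 36 with gomisin G, gave 1.76 as log2 change (SE 0.41, adjusted p = 0.0747). LINC01836, at 34 and 40 against 19 and 11 counts, had the most negative change of the 130, -1.34 (SE 0.42, adjusted p = 0.138).

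Among the LINC genes of higher level, LINC02086, at chr17:48646923-48707346 beside the HOXB genes, was the most abundant. It was at 196 and 214 CPM with vehicle and 144 and 174 CPM with gomisin G, both lower (log2 change -0.37, SE 0.17, adjusted p = 0.261). LINC00511, an RNA often reported as raised in carcinomas, was at 29.2 and 26.6 CPM against 42.7 and 46.3 CPM. Both Gomisin G libraries were above, with little spread in either group (log2 change 0.67, SE 0.17, adjusted p = 0.0800, or 0.0400 with DESeq2). LINC00205 was at 42.2 and 41.3 CPM against 41.2 and 63.5 CPM. Gomisin G replicate 2 alone stood out, and without it the log2 change was -0.020. LINC00173 was at 8.76 and 10.2 CPM with vehicle and 4.97 and 4.67 CPM with gomisin G, with no overlap (log2 change -0.98, SE 0.23, adjusted p = 0.0751).

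Further LINC genes near the threshold are named after their values were seen. LINC00346 had 44 and 40 counts with vehicle and 101 and 105 with gomisin G (log2 change 1.25, SE 0.26, adjusted p = 0.0565). LINC00847 was at 8.14 and 6.73 CPM against 15.2 and 12.6 CPM (log2 change 0.90, SE 0.22, adjusted p = 0.0805). LINC00963 was at 8.55 and 13.1 CPM against 19.6 and 21.2 CPM (log2 change 0.92, SE 0.24, adjusted p = 0.0892). Each had both Gomisin G libraries above both Vehicle libraries. The tumour suppressor transcript LINC-PINT is split over 2 rows. The row ENSG00000231721 was at 6.90 and 6.86 CPM against 9.67 and 10.8 CPM (log2 change 0.57, SE 0.21, adjusted p = 0.188), and the row ENSG00000226380, which holds MIR29B1, at 2.76 and 3.36 CPM against 2.69 and 3.47 CPM (log2 change 0.01, SE 0.31). Only the former had groups that did not overlap, and the difference between the rows was not tested.

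**Figure D5:**
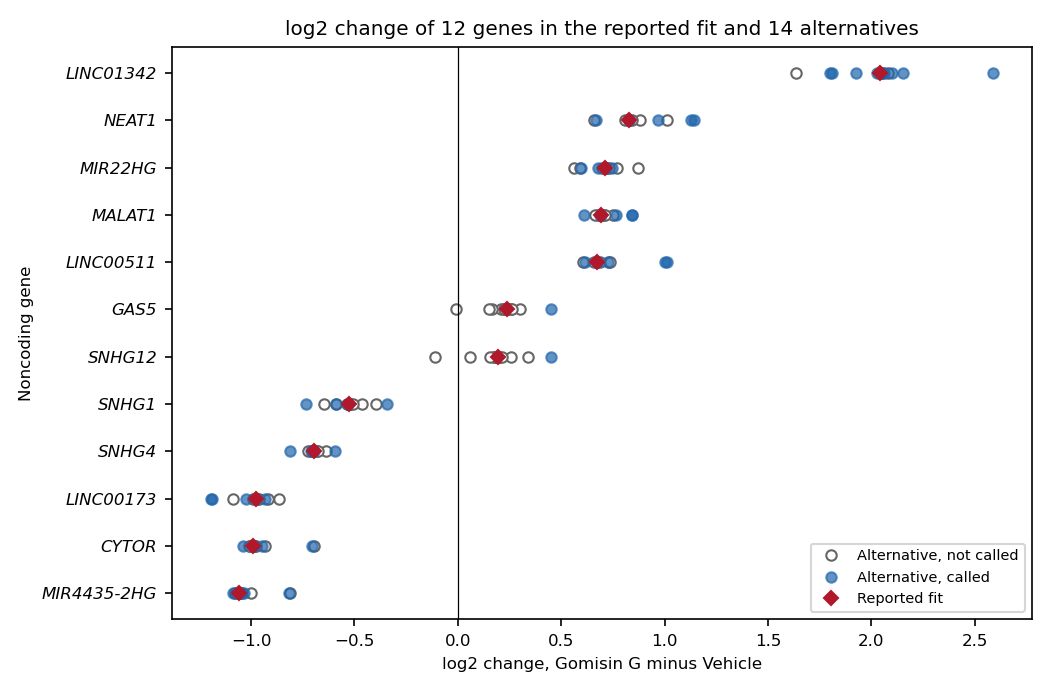
The log2 change (Gomisin G minus Vehicle) of 12 noncoding genes in the reported fit (diamonds) and in 14 alternatives (circles, filled where the gene was called). LINC01342 stays between 1.64 and 2.59 and MIR4435-2HG between -1.08 and -0.81, while GAS5 and SNHG12 reach to the other side of 0.

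The position of these genes limits what a count shows, since the sources used here do not give the strand setting of the counting. The span of 37 of the 130 genes overlaps a protein-coding gene and that of 93 does not. More than 10% of exon bases lie in exons of other genes for 30 of them, and more than 10% of words of 31 bases occur in transcripts of other genes for 51. For the 32 overlapping pairs of a noncoding gene and its nearest tested protein-coding gene, 14 had changes of the same sign (Pearson r -0.024). For the 72 pairs that do not overlap but lie within 50 kb, 43 had the same sign (r = 0.21), and for the 13 of these within 1 kb, 9 did (r = 0.44). These correlations run across gene pairs that share the same 4 libraries and are a description. No pair had both genes called. A called neighbour was found once, ARHGAP28 (log2 change -1.31, adjusted p = 0.0280), 3780 bases from LINC00668. LINC00668 itself was at 2.62 and 1.88 CPM with vehicle and 1.86 and 1.51 CPM with gomisin G (log2 change -0.42, SE 0.37).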

How the data were processed

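RNA-seq gene counts of 4 SW1990 libraries were used. The authors deposited raw read counts, unnormalized, made with fastp, HISAT2 and featureCounts on hg38, per the submitters' processing notes. Per the labels, ribosomal RNA was depleted from total RNA before library construction. Versions, strand setting and the treatment of reads that match several places are not given in the sources used here. The series and sample tables differed in 0 values, and all 58735 gene positions were as in GENCODE 29.

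Counts were tested with edgeR 4.0.16 in R 4.3.3: filterByExpr by group, normalization by TMM, and a robust quasi-likelihood fit on treatment alone (2 residual degrees of freedom). Adjustment was by Benjamini-Hochberg over 15721 genes, with a threshold of 0.05. CPM values use TMM factors, and deviations use log2 (CPM + 0.1). Log2 changes are Gomisin G minus Vehicle. On simulated counts for the 15721 genes, the recovered share was 8% at a 1.5-fold change, 56% at 2-fold, 88% at 4-fold and 100% at 8-fold, with 2 false calls. The simulation gave both groups the same spread, whereas the real Gomisin G libraries differed more than the Vehicle ones. Its changed genes came from all tested genes, with a median log2 CPM of 4.49 against 2.64 for the 130. The shares may therefore not hold for the 130 genes. Depth was 14580848 to 15245770 counts per library.

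The members and lists were chosen with earlier results of these data known. Named genes are the 5 genes taken by name, called genes, the 3 most abundant and the lowest-p genes in each direction of each class, SNHG1, MIR17HG and MIR22HG, and the genes at the count threshold. Neighbours were to be named where both genes of a pair were called, which gave none. Alternatives were RLE and upper-quartile factors, the legacy estimation, DESeq2 1.42.0, limma voom (limma 3.58.1), other filters, each library left out, a replicate block, a removed length trend and stricter membership. The replicate block was not used in the reported fit because the labels do not say that numbers pair cultures.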

Additional observations from a re-analysis of the deposited data

How the results depend on the processing

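Of 282 values of named genes under the alternatives, 211 kept their direction and side of the threshold, 56 passed it where the reported fit did not, 8 no longer passed it and 7 changed sign. The changes of sign came with a library left out, except for 1 of MIRLET7BHG. Over the omissions of each library the log2 change ran from -0.010 to 0.45 for GAS5, -0.11 to 0.45 for SNHG12 and -0.11 to 0.33 for SNHG3 (lowest without Gomisin G replicate 1). It ran from -0.020 (without Gomisin G replicate 2) to 0.60 for LINC00205, from -0.0089 (without Vehicle replicate 2) to 0.595 for MIR210HG and from -0.23 to 0.095 (without Gomisin G replicate 1) for MIRLET7BHG, which was at 0.00091 with upper-quartile factors. Against 1 gene called higher and 1 lower, 0 were called higher with RLE factors, the legacy estimation or limma voom. With upper-quartile factors 0 were called lower. Each of these settings called 1 of the 130 genes (0.769%). Of all tested genes, RLE factors called 1.63%, upper-quartile factors 1.77%, the legacy estimation 1.70% and limma voom 1.68%. DESeq2 called 7 higher and 3 lower, and a filter of 50 counts in 2 libraries, which left 103 of the 130, called 2 higher. In all, that filter called 3 of the 103 (2.91%), against 2.64% of all genes tested with it. Stricter membership (a sum of 200, or 50 Vehicle counts) gave 0 higher. Membership without protein-coding overlap, or with little shared sequence (chosen after seeing the data), gave 0 lower. With the length trend removed, 8 were called higher and 2 lower (7.69% of the 130, and 5.81% of all tested genes). Leaving out each library gave 0 to 37 called higher and 0 to 13 lower; the lone library left in a group is then assumed to vary like the other group. The median change of the LINC genes was 0.30 with upper-quartile factors, 0.14 with the length trend removed, 0.18 among rows with 50 Vehicle counts and 0.20 to 0.30 with a library left out. Over the same omissions the median of all 130 was 0.028 to 0.26 and that of the microRNA hosts -0.21 to -0.074. The cause was not tested for these shifts.

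With the replicate block, 19 genes were called higher and 8 lower (18.4% of all tested genes called), and with the block and the length trend removed together 20 higher and 13 lower (25.4% of the 130, and 18.7% of all tested genes), with a LINC median of 0.16. Deviations of same-numbered libraries correlated at 0.21 over the tested genes. With 2 numbers in each group, and no label saying that they pair cultures, the libraries share only a number. Depth limits the genes under 200 counts, where the median SE was 0.36.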
